A study of Rattus norvegicus with 24 samples.

Results

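The expression of 4 genes listed for glucose uptake and phosphorylation was followed through the heart septum of 24 rats: the glucose transporters Slc2a1 and Slc2a4, the hexokinase gene Hk2 and a gene listed as Hk1 whose position did not match Hk1. They were taken by Ensembl gene ID from a table of 30562 genes, and all 4 IDs lay on the chromosome named for them and passed the filter on low counts that left 17347 genes. The 24 Sprague-Dawley rats had all undergone cardiac ischemia-reperfusion, in which blood flow to part of the heart is blocked and restored, and the septum was taken on day 28. They formed 4 groups of 6. The first had intact brown adipose tissue (BAT, fat that burns fuel to make heat) and vehicle infused into the cerebral ventricles. The second had intact BAT and the same infusion with leptin, an adipocyte hormone sensed by brain neurons. The other groups also received leptin, after ablation of BAT (BATx) or after its sympathetic denervation (BATsx). No operated group received vehicle, so an operation can be compared only under leptin. No uninjured heart was analysed here, and every library carries its own rat number.

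Glucose enters heart cells through facilitative transporters. GLUT1, the product of Slc2a1, carries basal uptake in most tissues and is prominent in the fetal heart, whereas GLUT4, the product of Slc2a4, is the insulin- and contraction-responsive transporter of muscle and fat and the main one of the adult heart. Hexokinases then phosphorylate glucose and so trap it in the cell. Hexokinase 1 is found in most tissues and hexokinase 2 is the insulin-responsive form of muscle and heart, and both can bind mitochondria. The balance of Slc2a1 to Slc2a4 and of Hk1 to Hk2 is known to differ between fetal and adult heart.

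On the mRatBN7.2 assembly, Slc2a1 (ENSRNOG00000007284) lay on the plus strand at chr5:132717196-132745416 with 2655 bases of exon. Slc2a4 (ENSRNOG00000017226) lay on the minus strand at chr10:54666015-54671565 with 2666 bases of exon. Hk2 (ENSRNOG00000006116) lay on the minus strand at chr4:115234509-115283530 with 3691 bases of exon. No other annotated gene overlapped these 3. Their spans of 28221, 5551 and 49022 bases were within 18 bases of those of the RefSeq genes with the same symbols on the later GRCr8 assembly. Span alone does not identify them. Counting the member itself, 8 genes on the same strand of chromosome 5 and 3 on that of chromosome 4 lay within 1% of the RefSeq span. On chromosome 10 there were 12 on either strand, as no RefSeq strand was listed for Slc2a4.

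The ID listed as Hk1 went against its label. ENSRNOG00000000593 lay on the plus strand at chr20:43132363-43290099 and spanned 157737 bases, whereas RefSeq's Hk1 is on the minus strand of chromosome 20 and spans 101593 bases. One gene on chromosome 20, ENSRNOG00000046891, matched Hk1 in strand and, to within 1%, in span (chr20:30230486-30332131, minus strand, 101646 bases, 7132 bases of exon). The gene beside it spanned 14540 bases, against 14537 for RefSeq's Tacr2, a protein-coding neighbour of Hk1. The span of ENSRNOG00000000593 was instead near that of Rev3l (158187 bases), which encodes a DNA polymerase subunit and no hexokinase, and the gene beside it spanned 43218 bases, against 43249 for Traf3ip2, a protein-coding neighbour of Rev3l. ENSRNOG00000000593 is therefore called by its ID here and its values are not read as those of a hexokinase, although it stays among the 4 listed IDs in the counts below. ENSRNOG00000046891 is given beside them as the Hk1 candidate. The candidate rests on its strand, span and neighbour, and the likeness to Rev3l on span and neighbour, since the files do not pair IDs with names. For Rev3l and the neighbours, RefSeq spans were looked up only for Rev3l, Traf3ip2, Fyn, Hk1, Hkdc1 and Tacr2. None of the nearest genes on either side matched Fyn or Hkdc1, and other RefSeq genes of like span were not considered. The candidate was chosen after its values could be seen.

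Promoter sequence was read from RefSeq on GRCr8 for Slc2a1 (chr5:138002272-138002521, plus strand) and Hk2 (chr4:116841276-116841525, minus strand). It was also sought for Slc2a4, which had no entry. Each line gives the 250 bases before the annotated start, 5′ to 3′, and capitals mark matches to the motifs searched.
Slc2a1: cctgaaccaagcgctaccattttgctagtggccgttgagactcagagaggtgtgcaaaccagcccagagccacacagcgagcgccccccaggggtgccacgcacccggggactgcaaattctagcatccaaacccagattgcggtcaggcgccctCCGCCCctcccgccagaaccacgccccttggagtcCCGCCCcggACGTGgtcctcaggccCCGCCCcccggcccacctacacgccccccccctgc
Hk2: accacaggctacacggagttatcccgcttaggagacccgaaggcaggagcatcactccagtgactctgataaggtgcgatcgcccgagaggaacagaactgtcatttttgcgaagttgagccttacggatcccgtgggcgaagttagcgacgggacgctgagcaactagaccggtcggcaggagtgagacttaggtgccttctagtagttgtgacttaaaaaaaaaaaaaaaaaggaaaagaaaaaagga
A set of 5 motifs was searched on both strands: the GC box GGGCGG, the TATA box TATAAA, the CCAAT box CCAAT, the core ACGTG that many hypoxia response elements contain, and the E-box CAGCTG. The Slc2a1 window held 3 GC boxes, all read as CCGCCC, and 1 ACGTG core, and the Hk2 window held 0 matches to the 5 motifs. Over 33469 RefSeq promoter windows of the same length, 30.5% held a GC box and 16.6% an ACGTG core, so these letters are common. The other motifs occurred in 12.9% (TATA box), 34% (CCAAT box) and 12.0% (E-box) of the windows. A match is a description of the letters, not of a bound site, and the absence of a match says only that the letters are not in this window.

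Levels are given as CPM, counts brought to a common library size after TMM scaling, which is edgeR's adjustment for library composition, and levels of different genes are compared only per kilobase of exon. Libraries held 71587993 to 122910706 reads, and the lowest count behind a value was 223 reads (Hk2 in a leptin-infused rat with intact BAT). Mates of a pair were counted separately, so these are reads and not fragments. In whole septum, fewer cells of a type and less RNA per cell cannot be told apart. The main contrast between libraries followed the rat numbers given in the labels: the 7 rats with the highest numbers (3 vehicle, 1 leptin with intact BAT, 1 BAT ablation, 2 BAT denervation) stood apart from the other 17 on the first principal component, which held 45.9% of the variance. This boundary was read from the same libraries, so differences between the sets are given as a description with no test. The 17 libraries are called low-numbered and the 7 high-numbered.

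Slc2a4 was the most abundant of the genes per kilobase, with a median of 65.1 RPKM (CPM divided by kilobases of exon) over the 24 libraries. The Hk1 candidate followed with a median of 15.8 RPKM, then Slc2a1 with 4.31, ENSRNOG00000000593 with 1.89 and Hk2 with 1.43. The order changed between the sets of rats. In the low-numbered rats Hk2 had the lowest median of the 5 genes (1.12 RPKM), whereas in the high-numbered rats its median of 23.3 RPKM exceeded those of Slc2a1 (15.1) and ENSRNOG00000000593 (1.89).

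**Figure D1:**
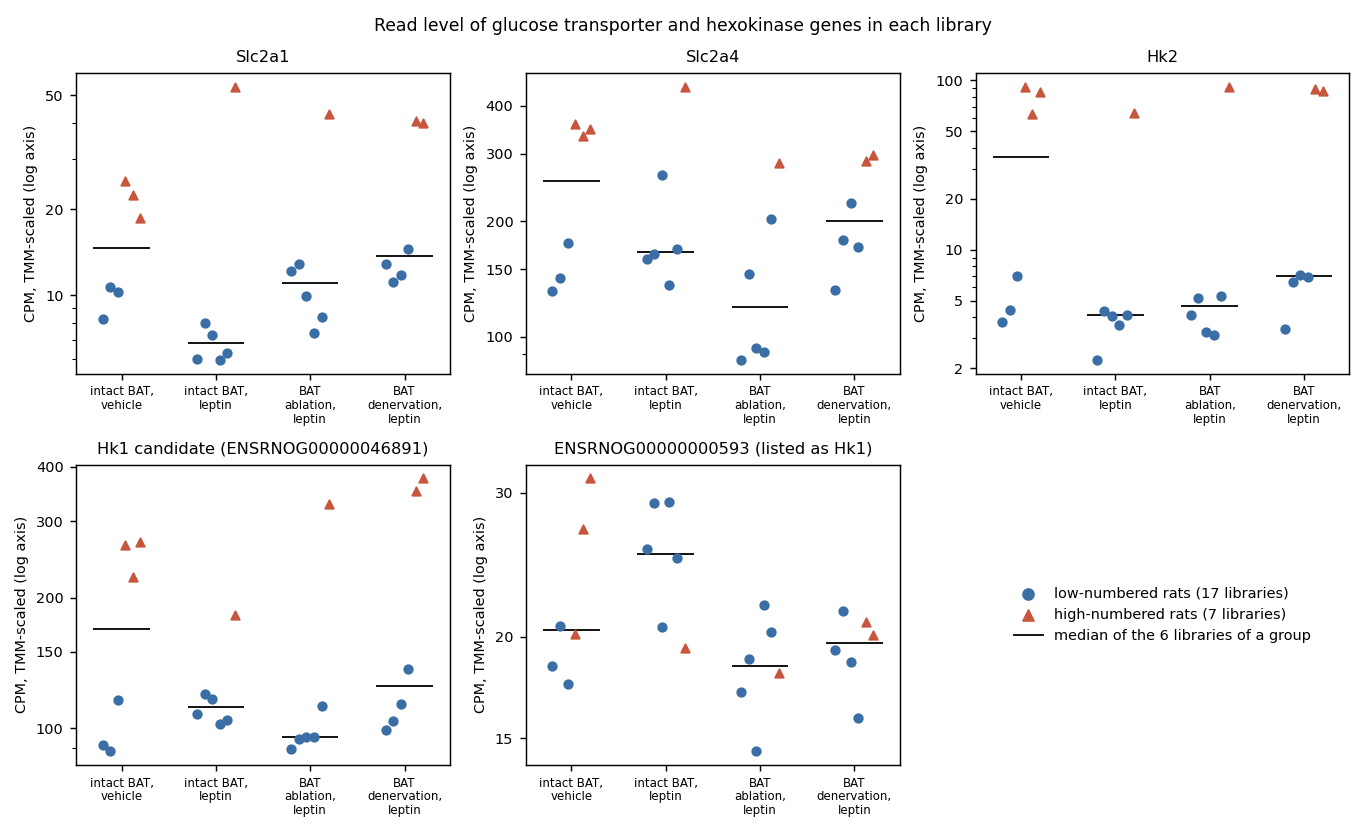
Level of each gene (CPM, log axis) in each of the 24 libraries by group, with circles for low-numbered and triangles for high-numbered rats and a line at the median of the 6 libraries. Hk2 lies between 2.24 and 7.12 CPM in every low-numbered rat and between 63.1 and 91.5 CPM in every high-numbered rat, whichever group the rat belongs to.

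Hk2 showed the widest range. In vehicle-infused rats it ran from 3.75 CPM through a median of 35.1 to 91.0 CPM, with 3 libraries on each side of the gap. With leptin and intact BAT it ran from 2.24 CPM through a median of 4.12 to 64.5 CPM. With BAT ablation it ran from 3.14 CPM through a median of 4.65 to 91.5 CPM, and with BAT denervation from 3.39 CPM through a median of 7.03 to 89.0 CPM. The 4 groups overlapped over nearly their whole range, and the order of their medians followed the number of high-numbered rats in each, with 3 in the vehicle group, 2 in the denervation group and 1 in each of the others. Between the sets, Hk2 was 16.8-fold higher in the high-numbered rats (4.07 ± 0.15 on the log2 scale, SE, edgeR). Of the 17347 genes tested, 37 (0.213%) had a larger absolute difference between the sets, and the median absolute difference over all genes was 0.71.

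Slc2a1, the basal transporter, differed between the sets in the same direction. It was 3.71-fold higher in the high-numbered rats (log2 1.89 ± 0.156), and 8.68% of the genes tested had a larger absolute difference. Its levels were 5.93 to 14.5 CPM in the 17 low-numbered rats and 18.6 to 53.4 CPM in the 7 high-numbered rats, with no overlap. By group, vehicle-infused rats ran from 8.29 CPM through a median of 14.6 to 25.1 CPM, and leptin-infused rats with intact BAT from 5.93 through 6.79 to 53.4 CPM. With BAT ablation the range was 7.39 to 42.9 CPM (median 11.0), and with BAT denervation 11.1 to 40.5 CPM (median 13.7). The leptin group with intact BAT therefore held both the lowest and the highest library of all 24, the highest being its single high-numbered rat.

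Slc2a4, the insulin-responsive transporter, was 2.13-fold higher in the high-numbered rats (log2 1.09 ± 0.155), and 30.6% of the genes tested differed more. It ran from 87.0 to 264.8 CPM in the low-numbered rats and from 284.2 to 448.0 CPM in the high-numbered rats. Vehicle-infused rats ran from 131.9 CPM through a median of 254.7 to 359.2 CPM. Leptin-infused rats with intact BAT ran from 136.8 through 166.8 to 448.0 CPM. Rats with BAT ablation ran from 87.0 through 119.6 to 284.2 CPM, and rats with BAT denervation from 132.8 through 200.7 to 297.0 CPM. The 3 lowest of the 24 libraries were all from low-numbered rats with BAT ablation.

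The Hk1 candidate was 2.71-fold higher in the high-numbered rats (log2 1.44 ± 0.105), at 182.3 to 376.9 CPM against 88.4 to 137.1 CPM. ENSRNOG00000000593, the gene listed as Hk1, did not share this pattern. It was 1.09-fold higher (log2 0.12 ± 0.117), 90.3% of the genes tested differed more between the sets, and the sets overlapped. Its levels were the steadiest of the 5 genes, from 14.5 CPM through a median of 20.2 to 31.3 CPM over all 24 libraries. By group its medians were 20.4 CPM with vehicle, 25.3 CPM with leptin and intact BAT, 18.4 CPM with BAT ablation and 19.7 CPM with BAT denervation.

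Another measure of the libraries, the length gradient, moved with the sets, although its ranges touched. The length gradient, which compares the median centred log2 level of the class of genes with the most exonic bases with that of the class with the fewest, was -0.42 to 0.18 in the low-numbered and 0.17 to 0.52 in the high-numbered rats. The share of reads from mitochondrial genes did not separate the sets. It was 23.1% to 45.9% in the low-numbered rats and 26.4% to 35.2% in the high-numbered rats, a range inside the first. The part of either measure in the differences of the transporters and hexokinases between the sets was not tested. When the set was entered in the model as a term with 2 levels, the biological coefficient of variation of Hk2 between libraries of a group fell from 1.21 to 0.24, that of Slc2a1 from 0.667 to 0.26 and that of Slc2a4 from 0.433 to 0.243. Each comparison is therefore given as designed and again with this rat-number term.

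**Figure D2:**
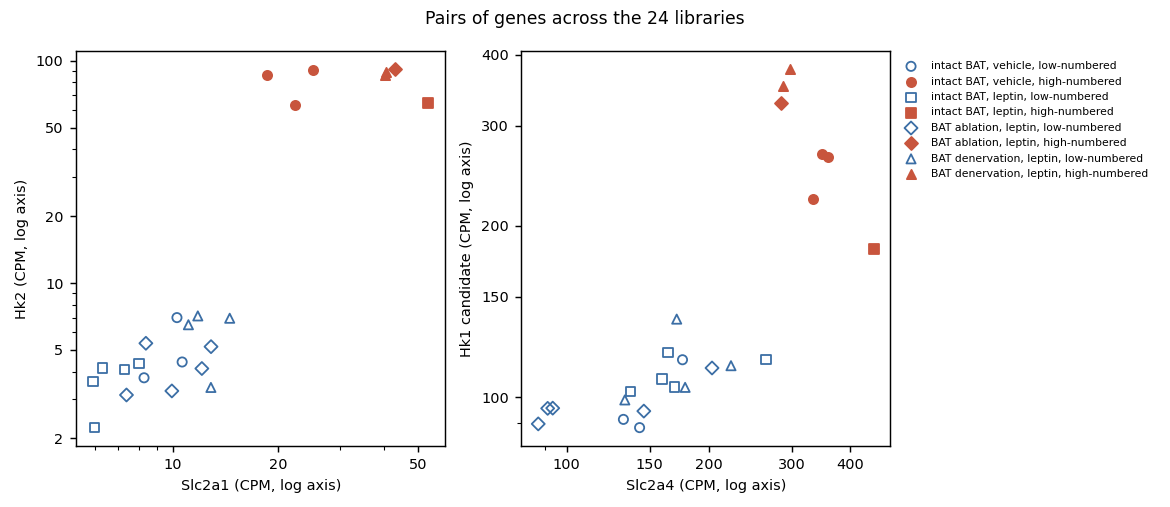
Hk2 against Slc2a1 (left) and the Hk1 candidate against Slc2a4 (right) in CPM on log axes, 1 point per library, with the marker giving the group and filled red markers the high-numbered rats. In both panels the 7 high-numbered libraries form a cluster of their own, at Slc2a1 levels of 18.6 CPM or more and Slc2a4 levels of 284.2 CPM or more.

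The first comparison asked whether leptin infusion altered these genes when BAT was intact. None of the 4 members passed an adjusted p of 0.05 in edgeR's quasi-likelihood test as designed, where 0.674% of all genes tested passed. At an unadjusted p under 0.05 the counts were 0 of 4 members and 4059 of 17347 genes. Hk2 gave the largest value, a log2 difference of -1.62 ± 1.15 (SE, adjusted p = 0.376) with a 95% interval from -4.00 to 0.75. With the rat-number term it was -0.40 ± 0.204 (adjusted p = 0.219), and 0 of 4 members passed against 6.13% of all genes. Unadjusted, 0 of 4 members and 4452 of 17347 genes had a p under 0.05 with the term. By other tools without the term, DESeq2 called 0 of 4 members (9.28% of all genes) and limma voom with sample weights 3 of 4 (60.6% of all genes). Slc2a1 differed by -0.13 ± 0.572 as designed (adjusted p = 0.901) and by 0.03 ± 0.212 with the term, Slc2a4 by -0.15 ± 0.356 and 0.23 ± 0.204, and ENSRNOG00000000593 by 0.14 ± 0.151 and 0.20 ± 0.149. The Slc2a1 and Slc2a4 values thus changed sign between the models, and each of the 4 intervals as designed, taken from the t distribution with the degrees of freedom of the edgeR test, included 0.

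Leaving out the single high-numbered rat of the leptin group, replicate 6, changed the call for 2 members. Without it the design as planned gave a Slc2a1 difference of -1.25 (adjusted p = 0.0497) and an Hk2 difference of -3.53 (adjusted p = 0.0364), with 3 high-numbered rats then in the vehicle group and 0 in the leptin group. Within the low-numbered rats alone, Slc2a1 was 5.93, 5.99, 6.30, 7.28 and 8.02 CPM in the 5 leptin-infused rats and 8.29, 10.3 and 10.6 CPM in the 3 vehicle-infused rats. These groups did not overlap, but the difference of -0.53 ± 0.184 did not pass over all genes (adjusted p = 0.163, edgeR, 0% of 17890 genes passing). In that fit 2 of 4 members and 3431 of 17890 genes had an unadjusted p under 0.05. How many of all genes showed no overlap between these groups was not counted. Among the high-numbered rats the leptin-infused rat had 53.4 CPM and the 3 vehicle-infused rats 18.6 to 25.1 CPM, the opposite order. That reversal rests on 1 rat and was not tested.

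The second comparison asked whether ablation of BAT altered the genes under leptin. As designed 0 of 4 members passed, against 3.03% of all genes. At an unadjusted p under 0.05 the counts were 1 of 4 members and 3118 of 17347 genes. DESeq2 (7.74% of all genes) and limma voom (17.4%) each called 1 of 4, ENSRNOG00000000593. ENSRNOG00000000593 came nearest, at 14.5 to 21.8 CPM with ablation against 19.4 to 29.3 CPM without. Its log2 difference was -0.43 ± 0.151 (adjusted p = 0.116, edgeR). With the rat-number term the difference was -0.44 ± 0.14 (a fold of 0.739) and passed at an adjusted p of 0.0325, so that 1 of 4 members fell against 18.6% of all genes that passed in either direction. The call did not hold when each library's length gradient was added to the term, which gave -0.25 ± 0.117 (adjusted p = 0.188). It was kept in 6 of the 12 fits that left out 1 library of either group, with adjusted p from 0.00895 to 0.0957. Among these the adjusted p was highest without replicate 3 of the ablation group.

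For Slc2a4 ablation gave a log2 difference of -0.57 ± 0.358 as designed (adjusted p = 0.437) and of -0.55 ± 0.198 with the rat-number term (adjusted p = 0.0534, edgeR), which missed the threshold. With the length gradient added to the term the Slc2a4 difference was -0.61 ± 0.207 (adjusted p = 0.0728, edgeR). Ablation replicate 5, at 203.4 CPM, was the highest low-numbered library of its group. Without it the difference with the term was -0.74 and passed (adjusted p = 0.00577), as it did without intact leptin replicate 4, whereas in the other 10 fits that left out 1 library it did not pass (adjusted p of at most 0.137). In the low-numbered rats alone 3 of the 5 ablation libraries (87.0 to 93.4 CPM) lay below all 5 with intact BAT (136.8 to 264.8 CPM), while the other 2 overlapped them.

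Slc2a1 gave 0.11 ± 0.572 as designed (adjusted p = 0.956) and 0.37 ± 0.212 with the term (adjusted p = 0.221, edgeR). With the length gradient added to the term Slc2a1 gave 0.15 ± 0.194 (adjusted p = 0.669, edgeR). In the low-numbered rats alone it was higher with ablation by 0.60 ± 0.162 (adjusted p = 0.0304), with 7.39 to 12.9 CPM against 5.93 to 8.02 CPM, where 11.4% of genes passed. Intact leptin replicate 6, the highest library for Slc2a1, changed the call: without it the value with the term was 0.69 (adjusted p = 0.00648). Of the 12 such edgeR fits that left out 1 library only this 1 passed, with adjusted p of at most 0.399. Hk2 gave 0.44 ± 1.12 as designed and 0.25 ± 0.198 with the term (adjusted p = 0.393), an interval from -0.16 to 0.66. The Hk1 candidate gave -0.02 ± 0.134 with the term, an interval from -0.30 to 0.26.

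The third comparison asked the same of sympathetic denervation of BAT. As designed 0 of 4 members passed and 0% of all genes did. At an unadjusted p under 0.05 stood 1 of 4 members (ENSRNOG00000000593, -0.36 ± 0.151) and 2836 of 17347 genes. With the rat-number term 0 of 4 passed against 6.65% of all genes. There 3 of 4 members and 4604 of 17347 genes had an unadjusted p under 0.05. Hk2 gave 0.62 ± 0.199 (adjusted p = 0.0566, edgeR, a fold of 1.54), Slc2a1 gave 0.58 ± 0.211 (adjusted p = 0.0866) and ENSRNOG00000000593 gave -0.38 ± 0.142 (adjusted p = 0.0918). Slc2a4 gave -0.17 ± 0.197 (adjusted p = 0.602). With the length gradient added to the term, Hk2 gave 0.56 ± 0.209 (adjusted p = 0.1665, edgeR) and Slc2a1 0.40 ± 0.191 (adjusted p = 0.277). In that fit ENSRNOG00000000593 gave -0.22 ± 0.115 (adjusted p = 0.327) and Slc2a4 -0.22 ± 0.205 (adjusted p = 0.596). Without the term DESeq2 called 0 of 4 (2.84% of all genes) and limma voom 2 of 4, Slc2a1 and ENSRNOG00000000593 (22.6% of all genes).

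In the low-numbered rats Hk2 ran from 3.39 CPM through a median of 6.72 to 7.12 CPM with denervation and from 2.24 to 4.35 CPM with intact BAT, so that 3 of 4 denervation libraries lay above all 5 with intact BAT. Slc2a1 was 11.1, 11.8, 12.8 and 14.5 CPM with denervation and at most 8.02 CPM with intact BAT. These Slc2a1 groups did not overlap, and their difference of 0.91 ± 0.171 had an unadjusted p of 4.84e-05 and an adjusted p of 0.0869 (edgeR), where 0.00559% of genes passed. In that fit 3 of 4 members and 4176 of 17890 genes had an unadjusted p under 0.05, and non-overlap over all genes was not counted. Without intact leptin replicate 6 the Slc2a1 value with the term was 0.94 and passed (adjusted p = 0.0143). Without denervation replicate 1, its lowest Hk2 library, the Hk2 value was 0.74 and passed (adjusted p = 0.0232). Of the 12 edgeR fits with the term that left out 1 library, 1 passed for Slc2a1 and 2 for Hk2. The highest adjusted p was 0.203 for Slc2a1 and 0.147 for Hk2.

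**Figure D3:**
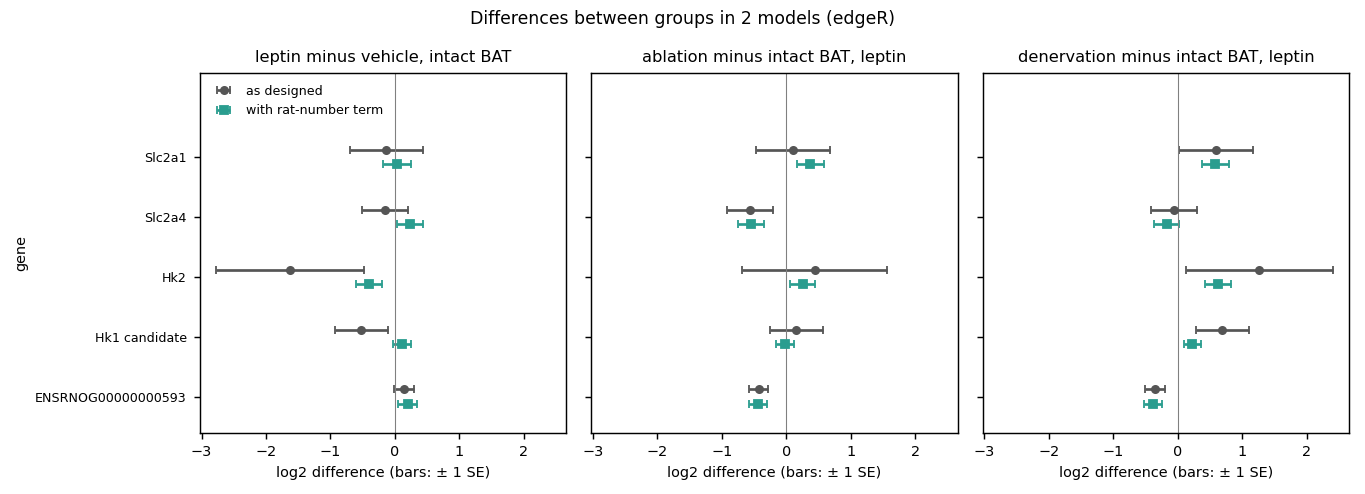
Log2 differences (x axis, bars ± 1 SE) of the 5 genes in the 3 comparisons, fitted by edgeR as designed (grey circles) and with the rat-number term (green squares). The SE of Hk2 is 1.15 as designed and 0.204 with the term in leptin against vehicle, and the value for ENSRNOG00000000593 under ablation, -0.43 as designed and -0.44 with the term, hardly moves.

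The remaining pairs of groups share libraries with those comparisons. Ablation with leptin, denervation with leptin and vehicle differed in 0 of 4 members in each of the 3 pairs, as designed and with the term, where 0% of all genes passed. At an unadjusted p under 0.05 the edgeR count was 0 of 4 in each pair, except 1 of 4 with the term in denervation against vehicle (Slc2a1). In that fit 659 of 17347 genes had such a p. DESeq2 called 0 of 4 in each pair (at most 0.121% of all genes). Limma voom called 4 of 4 in ablation against vehicle (55.6% of all genes), 3 of 4 in denervation against vehicle (46.3%) and 0 of 4 between the operations (0.288%). With the rat-number term Slc2a1 gave 0.41 ± 0.214 for ablation against vehicle (adjusted p = 0.599, edgeR) and 0.62 ± 0.212 for denervation against vehicle (adjusted p = 0.999). Between ablation and denervation, Slc2a4 differed by -0.38 ± 0.198 (adjusted p = 0.613) and Hk2 by -0.37 ± 0.198 (adjusted p = 0.618). These values leave differences of either size within their intervals, from -0.79 to 0.03 for Slc2a4 and from -0.78 to 0.04 for Hk2. With the rat number as a linear covariate in place of the term, edgeR called Slc2a4 (-0.97, adjusted p = 0.00299) and Hk2 (-1.98, adjusted p = 0.0126) in ablation against vehicle, and Slc2a4 in ablation against denervation (-0.85, adjusted p = 0.022). That fit called 6804 of 17347 genes in ablation against vehicle and 3392 in ablation against denervation.

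A ratio of 2 genes in the same library does not depend on how the library was scaled. Per kilobase, Slc2a4 exceeded Slc2a1 in every library, by 6.60-fold to 36.2-fold. The log2 ratio of Slc2a1 to Slc2a4 averaged -3.96 ± 0.177 (SD, n = 6) with vehicle and -4.43 ± 0.725 with leptin and intact BAT. It averaged -3.42 ± 0.676 with BAT ablation and -3.48 ± 0.574 with BAT denervation. In leptin-infused rats with intact BAT the 5 low-numbered libraries ran from -5.18 to -4.35 and the high-numbered one was -3.06, whereas in vehicle-infused rats both sets lay between -4.22 and -3.74.

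Compared with leptin and intact BAT, the log2 ratio of Slc2a1 to Slc2a4 was 1.01 ± 0.405 (SE) higher with ablation (two-sided exact permutation p = 0.0433) and 0.95 ± 0.378 higher with denervation (exact permutation p = 0.0325). Neither passed after Benjamini-Hochberg adjustment over 12 ratio tests (both 0.218 adjusted, where 6 against 6 can reach 0.00216 before adjustment). The groups overlapped in both cases. The unadjusted p also passed 0.05 in only 3 of 12 (ablation) and 4 of 12 (denervation) tests that left out 1 library, among them those without intact leptin replicate 6, which gave 1.29 and 1.23.

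Within the low-numbered rats, the ratio with leptin and intact BAT was lower than with vehicle by a log2 difference of -0.76 ± 0.174 (exact permutation p = 0.0179, the smallest that 5 against 3 rats can give). It was 0.91 ± 0.244 higher with denervation than with intact BAT under leptin (exact permutation p = 0.00794, the smallest that 4 against 5 can give), and 1.15 ± 0.323 higher with ablation (exact permutation p = 0.0238). The first 2 pairs did not overlap, but the p adjusted over 12 tests was 0.0714 for all 3. In the same rats the ablation comparison gave 0.60 ± 0.162 for Slc2a1 and -0.53 ± 0.243 for Slc2a4 (adjusted p = 0.156, edgeR), and the denervation comparison gave 0.91 ± 0.171 and -0.02 ± 0.258.

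**Figure D4:**
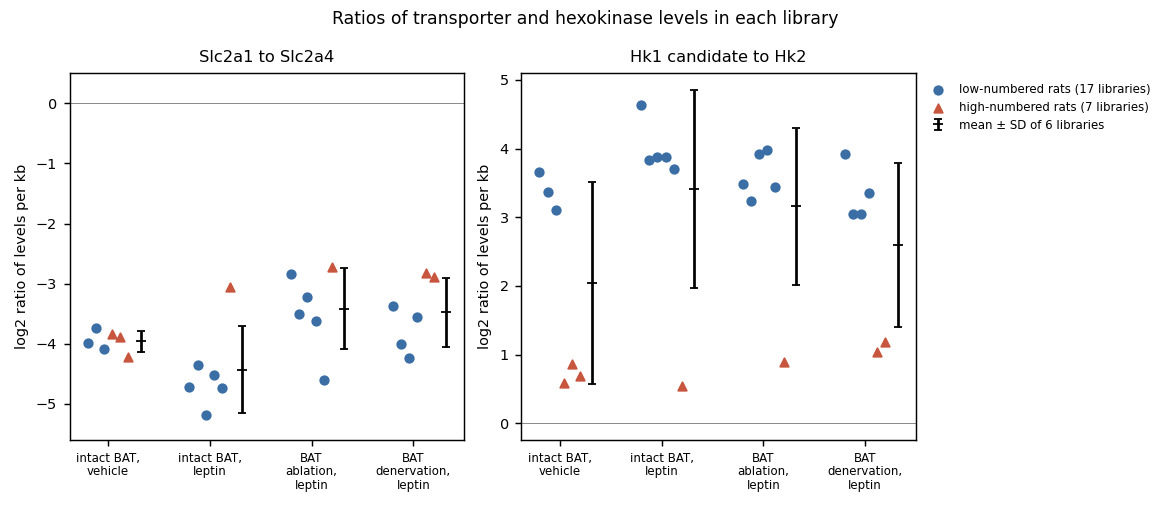
Log2 ratio of levels per kilobase in each library by group, for Slc2a1 to Slc2a4 (left) and the Hk1 candidate to Hk2 (right), with circles for low-numbered rats, triangles for high-numbered rats and bars for the mean ± SD of 6 libraries. The hexokinase ratio lies between 3.05 and 4.64 in all low-numbered rats and between 0.55 and 1.18 in all high-numbered rats, while the transporter ratio overlaps between the sets.

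The hexokinase ratio followed the rat numbers. Per kilobase the Hk1 candidate exceeded Hk2 in all 24 libraries, by a median of 12.6-fold in the low-numbered rats (8.26 to 24.9) and of 1.83-fold in the high-numbered rats (1.46 to 2.27). The ratio of ENSRNOG00000000593 to Hk2, as listed, had medians of 1.61 and 0.0809 in the same sets. Its log2 mean was -1.37 ± 2.01 (SD, n = 6) with vehicle, 0.54 ± 1.91 with leptin and intact BAT, -0.13 ± 1.87 with ablation and -1.10 ± 2.01 with denervation, and no pair of groups passed (exact permutation p from 0.0844 to 0.903, adjusted p from 0.218 to 0.903).

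Within the low-numbered rats the log2 ratio of the Hk1 candidate to Hk2 was 0.61 ± 0.23 higher with leptin than with vehicle when BAT was intact, without overlap (exact permutation p = 0.0179, adjusted 0.0857 over 18 tests, the smallest p that 5 against 3 can give being 0.0179). It gave -0.64 ± 0.263 with denervation (exact permutation p = 0.0714) and -0.37 ± 0.219 with ablation (exact permutation p = 0.119), both against intact BAT under leptin. None passed after adjustment. The ratio of ENSRNOG00000000593 to Hk2 gave 0.89 ± 0.373, -1.14 ± 0.353 and -0.69 ± 0.264 for the same comparisons, with adjusted p of 0.0794, 0.0714 and 0.0794.

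Correlations between the members were computed within each set of rats, since the sets form separate clusters, and 12 pairs were tested. In the 17 low-numbered rats Slc2a1 and ENSRNOG00000000593 varied in opposite directions (Pearson's r = -0.72, permutation p = 0.00111, adjusted 0.0133; Spearman's rho = -0.69, p = 0.00297, adjusted 0.0293). Without the 2 libraries farthest from the median of Slc2a1, r was -0.59. In the 7 high-numbered rats r was -0.84 (exact permutation p = 0.00813, adjusted 0.0488; rho = -0.86, p = 0.0238, adjusted 0.0895), but it fell to -0.35 without the 2 farthest libraries and so rests on them. Slc2a4 and Hk2, the insulin-responsive pair, gave r = 0.49 (permutation p = 0.0464, adjusted 0.139) and rho = 0.66 (p = 0.00488, adjusted 0.0293) in the low-numbered rats, and r was 0.47 without the 2 farthest. In the high-numbered rats the same pair gave r = -0.61 (exact permutation p = 0.176).

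Slc2a1 and Hk2 gave r = 0.59 in the low-numbered rats (permutation p = 0.0138, adjusted 0.0551; rho = 0.53, p = 0.0298, adjusted 0.0895), and r was 0.44 without the 2 farthest libraries. The transporters Slc2a1 and Slc2a4 did not vary together there (r = -0.08, permutation p = 0.746; rho = -0.01, p = 0.982). The groups are mixed within each set, so these relations include differences between groups.

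For each member the gene with the most similar pattern over the 17 low-numbered rats was taken from 13378 genes with a mean of at least 1 CPM, as a description. For Slc2a1 it was ENSRNOG00000029939 on chromosome 18 (r = 0.89), which gave r = -0.34 in the 7 high-numbered rats. For Slc2a4 it was ENSRNOG00000023162 on chromosome 2 (r = 0.95, and 0.55 in the high-numbered rats). For ENSRNOG00000000593 it was ENSRNOG00000014605 on chromosome 16 (r = 0.95, and 0.73). For Hk2 it was ENSRNOG00000005053 on chromosome 6 (r = 0.91, and 0.33), which, like Hk2, was higher in every high-numbered rat (up to 282 CPM) than in any low-numbered one (at most 63.7 CPM). The number of genes with r over 0.8 was 28 for Slc2a1, 114 for Hk2, 189 for Slc2a4 and 805 for ENSRNOG00000000593. The libraries share their depth, length gradient and mitochondrial share across all these genes.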

How the data were processed

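Messenger RNA of the heart septum was extracted and sequenced in paired reads of 24 libraries, per the labels' protocols. The authors deposited whole-number read counts per gene for 30562 genes, used here as deposited. Per the submitters' processing notes, the tools were STAR 2.7.10a, featureCounts 2.0.2, R 4.4.1 and DESeq2. Per the file headers, the deposited counts came from featureCounts 2.0.6 on Ensembl 113 (mRatBN7.2), unstranded and without an option to count pairs once, so both mates were counted. Reads of overlapping genes or near-identical copies cannot be separated by such counts. Another 5 count columns match no listed sample and were not used.

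Groups came from the labels. After filterByExpr and TMM scaling, all 24 libraries were fitted in 1 model by robust quasi-likelihood (edgeR 4.0.16 in R 4.3.3), with Benjamini-Hochberg adjustment over 17347 genes at 0.05. Residual degrees of freedom were 20, and 19 with the rat-number term. For correlations and nearest genes log2 CPM took a prior count of 2, and ratios used levels per exonic kilobase. Alternatives used DESeq2 1.42.0, limma 3.58.1 (voom with sample weights), other scalings and filters, a linear rat number, a length gradient, a replicate block, the low-numbered rats alone and each library left out. The edgeR fit as designed was also run on simulated counts, drawn with the spread of the model with the rat-number term. Those counts held no difference between the sets of rats, so the run cannot show how the fit behaves where the sets differ.

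The members, lists and the rat-number boundary were chosen with earlier results of these data known. Named genes were the members and, for each, the gene with the highest r over the low-numbered rats. The Hk1 candidate and the leave-one-out fits with the rat-number term were added after seeing the data. The lists of glucose-pathway genes and of cell type markers were not run, since 0 of the 30562 IDs matched a symbol in the reference table. The septum label was therefore not checked against markers. RefSeq windows for Slc2a1 and Hk2 were matched by symbol, and Slc2a4 had no entry.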

Additional observations from a re-analysis of the deposited data

Results flagged for a closer look

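In 10 of 32 sets of 6 libraries (a gene or ratio in a group), 1 library lay farther from the others than Dixon's criterion allows. Chance flags about 1 in 20 of independent, normally spread sets, whereas these sets share genes and libraries. All 10 concern replicate 6 of the leptin group with intact BAT or of the BAT ablation group, the single high-numbered rat of each. In the leptin group with intact BAT this rat had the highest level of Slc2a1 (53.4 CPM), of Hk2 (64.5 CPM) and of the Hk1 candidate (182.3 CPM). Its log2 ratios were the lowest, at 0.55 for the Hk1 candidate to Hk2 and -3.27 for ENSRNOG00000000593 to Hk2. In the ablation group replicate 6 likewise had the highest Slc2a1 (42.9 CPM), Hk2 (91.5 CPM) and Hk1 candidate (328.6 CPM), with log2 ratios of 0.90 and -3.88. Groups that hold 2 or 3 high-numbered rats gave no such flag. The criterion takes the gap to the nearest library, so such rats can hide each other.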

How the results depend on the processing

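As designed 0 of 24 member tests passed (4 members, 6 pairs of groups), where up to 525 of 17347 genes passed in a pair. The count was 0 of 24 with RLE size factors, no filter on low counts, mitochondrial genes left out, each pair of groups alone, the replicate block, or the rat-number term with the length gradient. In that order, the genes passing in a pair reached 513 of 17347, 234 of 24064, 532 of 17313, 6 of 16395, 3635 of 17347 and 1295 of 17347. It was 1 with the rat-number term (up to 3219 of 17347 genes), 1 with DESeq2 (up to 1610) and 2 in the low-numbered rats (up to 2033 of 17890). It was 5 with a linear rat number and 13 with limma voom and sample weights, which called up to 60.6% of all genes. The linear rat number called up to 6804 of 17347 genes in a pair of groups. Why the counts differ was not tested.

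For ablation against intact BAT, ENSRNOG00000000593 passed at -0.45 (DESeq2), -0.52 (voom), -0.46 (linear rat number), -0.49 (low-numbered rats) and -0.44 (rat-number term), with adjusted p of 0.0462, 0.0206, 0.0412, 0.0285 and 0.0325. With the length gradient beside the term it was -0.25 and did not pass (adjusted p = 0.188, edgeR). With voom, leptin against vehicle also passed for Slc2a1 (-1.44), Slc2a4 (-0.79) and Hk2 (-3.68), and denervation for Slc2a1 (0.95) and ENSRNOG00000000593 (-0.48), while Slc2a4 under denervation turned to 0.12. Other signs that turned with voom were the Hk1 candidate under ablation (-0.14) and, against vehicle, Slc2a1 (-0.48) and the candidate (-0.74) in denervation. With a linear rat number Slc2a4 under ablation (-1.11), Slc2a4 (-0.97) and Hk2 (-1.98) in ablation against vehicle and Slc2a4 between the operations (-0.85) also passed, and signs turned for Slc2a4 in leptin against vehicle (0.14) and under ablation for Slc2a1 (-0.32), Hk2 (-1.09) and the candidate (-0.60).

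With the rat-number term, signs turned in leptin against vehicle for Slc2a1 (0.034), Slc2a4 (0.23) and the candidate (0.10), and for the candidate under ablation (-0.020). Against vehicle they turned for Slc2a1 (0.41) and the candidate (0.083) in ablation and for Slc2a4 (0.061) and Hk2 (0.22) in denervation. With the length gradient added the turned values were 0.17, 0.27 and 0.075 for Slc2a1, Slc2a4 and the candidate in leptin against vehicle, 0.33 and 0.093 for Slc2a1 and the candidate in ablation, and 0.049 and 0.21 for Slc2a4 and Hk2 in denervation, these against vehicle. In the low-numbered rats Slc2a1 under ablation passed (0.60). Signs turned there for Slc2a4 (0.26) and the candidate (0.16) in leptin against vehicle and the candidate under ablation (-0.17). Against vehicle they turned for Slc2a1 in ablation (0.061) and for Slc2a4 (0.24), ENSRNOG00000000593 (0.00259) and Hk2 (0.25) in denervation. Ratio differences there newly passed an unadjusted exact permutation p of 0.05 for Slc2a1 to Slc2a4 (-0.76) and the candidate to Hk2 (0.61) in leptin against vehicle and for ENSRNOG00000000593 to Hk2 in the 3 comparisons (0.89, -0.69 for ablation, -1.14 for denervation). Slc2a1 to Slc2a4 passed there as before under ablation (1.15) and denervation (0.91). Against vehicle, denervation turned to -0.24 for the ratio of ENSRNOG00000000593 to Hk2 and to -0.037 for the candidate's ratio.

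Leaving out 1 library at a time as designed, Slc2a1 ranged from -1.25 to 0.046 in leptin against vehicle, -0.52 to 1.22 under ablation, 0.32 to 1.70 under denervation and -0.65 to 0.15 in ablation against vehicle. Hk2 ranged from -3.53 to -1.25, from -1.71 to 2.35 and, in denervation against vehicle, from -0.95 to 0.015. Slc2a4 under denervation ranged from -0.17 to 0.27, and the candidate from -0.32 to 0.31 under ablation and -0.12 to 0.33 in denervation against vehicle. The 3 calls reached this way were those without intact leptin replicate 6: Slc2a1 and Hk2 in leptin against vehicle and Slc2a1 under denervation (1.70, adjusted p = 0.0477, edgeR). With the rat-number term the ranges that crossed 0 were -0.35 to 0.15 (Slc2a1, leptin against vehicle), -0.14 to 0.028 (candidate, ablation), -0.27 to 0.015 (Hk2) and -0.015 to 0.16 (candidate) in ablation against vehicle, -0.042 to 0.13 (Slc2a4, denervation against vehicle) and -0.11 to 0.00442 (ENSRNOG00000000593, ablation against denervation).

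The ratio of Slc2a1 to Slc2a4 ranged from -0.74 to -0.32 in leptin against vehicle, 0.86 to 1.29 under ablation, 0.80 to 1.23 under denervation and -0.091 to 0.30 between the operations. That of ENSRNOG00000000593 to Hk2 ranged from 1.44 to 2.67, -1.44 to 0.076, -2.40 to -1.13 and, in denervation against vehicle, -0.20 to 0.78, and the candidate's ratio from -0.82 to 0.20 under ablation.

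With the replicate block no member passed (ENSRNOG00000000593 under ablation -0.44, adjusted p = 0.0693, edgeR), and the candidate under ablation turned to -0.030. Blocked sign-flip tests gave an exact permutation p of 0.0312, the smallest that 6 pairs can give, under ablation and denervation alike, for Slc2a1 to Slc2a4 (1.01 and 0.95) and for ENSRNOG00000000593 to Hk2 (-0.67 and -1.64). Whether replicate numbers pair the libraries cannot be told from these values. Of 36 same-numbered pairs 24 correlated over 0.1 (r from -0.34 to 0.73, median 0.2), and 9 of 24 libraries correlated best with their own number. Replicate number also goes with the rat sets, since every replicate 6 was high-numbered. The lowest count behind a member's value was 223 reads, and each group held 6 rats with unequal numbers from each set.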
